A study of Mus musculus with 3 samples.

Results

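Metallothioneins and the zinc transporters of the intestinal epithelium were examined as 7 genes: Mt1, Mt2, Slc30a10, Slc30a1, Slc39a4, Slc39a5 and Mtf1. They were matched by symbol to the deposited gene list, where all 7 of 7 were found among 51912 genes. The genes were selected on their measured levels in these same libraries, so their levels and ratios below are a description and no test was made of them. Single-cell RNA sequencing (scRNA-seq) had been done on sorted mouse intestinal epithelium from 2 Arid3a cKO replicates, called cKO 1 and cKO 2, and from a WT control. In Arid3a cKO mice (VillinCreERT2 with Arid3a fl/fl), tamoxifen activates a Cre recombinase that is made under the Villin promoter, and so deletes Arid3a in intestinal epithelial cells while other tissues keep the gene. WT mice carried VillinCreERT2 without the floxed allele and received tamoxifen as well, at 8 to 10 weeks of age in both groups, and all were harvested 1 month after the first injection. Crypts were isolated and dissociated, and living Epcam-positive cells without CD45 or CD31 were sorted. Of the replicates per condition that the design describes, 1 WT library is analysed here. With 1 WT library, no spread between control mice can be measured.

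Metallothioneins are small cysteine-rich proteins that bind zinc and copper in the cytosol and buffer the free metal. Their genes are classic targets of MTF1, a zinc-sensing transcription factor that binds metal response elements in promoters, and they also respond to glucocorticoids and stress. Enterocytes take up dietary zinc through ZIP4 (Slc39a4) on the brush border, whereas ZIP5 (Slc39a5) sits on the basolateral side. Transporters of the SLC30 family move zinc out of the cytosol, and ZNT1 (Slc30a1), an MTF1 target, exports it across the plasma membrane. Slc30a10 belongs to that family by sequence, and it is best known as an exporter of manganese in liver and intestine.

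Mt2 and Mt1 lie next to each other on chromosome 8 of GRCm38, at 94172664 to 94173568 and at 94179082 to 94180327, both on the plus strand and 5513 bases apart. Slc30a10 (chromosome 1, 185454848 to 185468762, plus strand) and Slc30a1 (chromosome 1, 191906767 to 191913247, plus strand) share a chromosome. Slc39a4 (chromosome 15, 76612383 to 76617384) and Slc39a5 (chromosome 10, 128395931 to 128401229) are on the minus strand, and Mtf1 (chromosome 4, 124802104 to 124849800) is on the plus strand. All 7 are protein-coding in the GENCODE M21 annotation. Annotated transcripts of Mt1 and Mt2 have no run of more than 20 bases in common, so reads of the paralogues can be told apart over most of their length. Genes on the opposite strand overlap Mt2 (Gm45774), Slc30a10 (Gm2061), Slc30a1 (1700034H15Rik), Slc39a5 (Ankrd52) and Mtf1 (1110065P20Rik), and whether the counting used strand is not given in the sources used here.

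Because Mt1 and Mt2 moved in the same direction in several cell classes, the 250 bases before the RefSeq start (GRCm38.p6) are shown for both, and for Slc30a10, which moved the other way. Capitals mark matches on either strand to the core of the metal response element, searched as TGCACNC and as TGCGCNC.
Mt2 (chr8:94172368-94172617, plus strand): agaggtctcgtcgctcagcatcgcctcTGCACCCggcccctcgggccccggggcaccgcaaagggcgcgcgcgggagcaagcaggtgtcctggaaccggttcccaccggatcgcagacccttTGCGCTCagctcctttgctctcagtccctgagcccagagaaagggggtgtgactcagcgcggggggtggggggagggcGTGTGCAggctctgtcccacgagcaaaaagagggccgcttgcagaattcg
Mt1 (chr8:94178839-94179088, plus strand): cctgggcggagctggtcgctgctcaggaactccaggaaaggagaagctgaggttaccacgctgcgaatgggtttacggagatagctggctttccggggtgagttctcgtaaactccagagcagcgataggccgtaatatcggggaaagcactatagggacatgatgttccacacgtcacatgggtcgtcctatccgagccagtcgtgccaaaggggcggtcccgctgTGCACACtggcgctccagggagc
Slc30a10 (chr1:185454598-185454847, plus strand): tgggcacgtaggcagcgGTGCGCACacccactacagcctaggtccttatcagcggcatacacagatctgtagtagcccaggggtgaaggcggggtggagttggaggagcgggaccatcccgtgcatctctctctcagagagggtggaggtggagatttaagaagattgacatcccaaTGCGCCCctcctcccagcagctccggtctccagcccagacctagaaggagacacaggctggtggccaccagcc
The Mt2 window held 3 matches, the Mt1 window 1, and the Slc30a10 window 3, of which a pair on opposite strands overlap each other. Of 32851 windows of this length in the RefSeq table, 10.4% held TGCACNC, 12.5% held TGCGCNC and 1.26% held at least 3 matches to either. The Mt1 window ends at the first annotated start of that gene, and the starts of 2 other annotated Mt1 transcripts lie 122 and 152 bases beyond it, so sequence just before those starts is not covered. The Mt2 window ends 46 and 242 bases before the annotated starts of the 2 Mt2 transcripts, so the sequence next to them is not covered either, and the match counts of the genes are not compared. Among the other members with a window, Slc30a1 had 1 match, Slc39a5 had 1 in the first of its 2 windows, and Mtf1 had 0. Neither CAAAGTCCA (an HNF4 motif, in 0.384% of all windows) nor ATTAAA (an AT-rich motif of the kind ARID3A binds, in 12.7%) occurred in the windows of these 6 genes. Most windows of any gene lack these exact motifs, so nothing about either factor is read from their absence here.

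The libraries held 94614297 to 129243053 unique molecular identifiers (UMIs, each a tag of 1 captured transcript). After the limits of at least 1000 genes and at most 15% mitochondrial UMIs, 2134 cells of cKO 1, 1550 of cKO 2 and 1910 of WT remained, and the cells kept shared at most 2 barcodes between any pair of libraries. Levels are given as CPM, which scale the UMIs of a gene to 1000000 UMIs of the cell class. Their exact Poisson 95% intervals cover counting error only, and neither spread between cells nor spread between mice. Arid3a itself was at 0.592 CPM in cKO 1, 0.894 CPM in cKO 2 and 2.57 CPM in WT over all kept cells. Which exons were deleted is not given in the sources used here, so the 3′ tags may lie outside them. Clusters were named from marker lists as intestinal stem cell (ISC)-, transit-amplifying (TA)-, enterocyte-, goblet-, Paneth-, enteroendocrine- and tuft-like. A cluster of 839 cells led by Bmp3, Car4 and Ccl20 and one of 197 cells led by Gm42418, with a median of 10.2% mitochondrial UMIs, stayed unnamed. Lymphocyte, endothelial and stromal markers summed to at most 0.479 CPM each in the enterocyte-like cells of any library. Arid3a in enterocyte-like cells was at 0.479 CPM (12 UMIs) in cKO 1, 1.19 CPM (24 UMIs) in cKO 2 and 2.27 CPM (47 UMIs) in WT. There the interval of cKO 2 (0.765 to 1.78) overlapped that of WT (1.67 to 3.02).

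Mt1, the main metallothionein RNA in this epithelium, was lower in both cKO libraries than in WT. In enterocyte-like cells it was at 339 CPM (331 to 346) in cKO 1, 411 CPM (402 to 420) in cKO 2 and 835 CPM (822 to 847) in WT. Both cKO libraries lay below WT by more than the gap between them, and no interval overlapped that of WT. The log2 ratio of CPM + 5 to WT was -1.29 in cKO 1 and -1.01 in cKO 2. A gene was counted as past the fold when it averaged at least 20 CPM and both cKO libraries differed from WT in 1 direction by a log2 ratio of 0.5 or more. In enterocyte-like cells, 4731 genes could be counted, of which 0.993% were lower and 0.634% higher past that fold, and the median log2 ratio over all of them was -0.016. All 7 members averaged at least 20 CPM there, with 1 lower (Mt1) and 1 higher (Slc30a10). Since the members were chosen with these ratios known, nothing is read from their count against those percentages.

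Each of the 4 enterocyte-like clusters had less Mt1 in both cKO libraries. In the cluster led by Dnase1 and Cubn it was at 258, 213 and 689 CPM in cKO 1, cKO 2 and WT. In the cluster led by Ms4a18 and Areg the values were 315, 504 and 828 CPM, in the same order of libraries. The cluster led by Akp3 and S100g had the highest Mt1 of the enterocyte-like clusters in every library, at 578, 758 and 1360 CPM. In the small interferon-led cluster of 53 cells, Mt1 was at 189, 159 and 672 CPM. The intervals of both cKO libraries lay apart from that of WT in all 4. The Bmp3-led cluster, most of whose cells fell between crypt and enterocyte-like cells in pseudotime, also had less Mt1 in the cKO libraries, at 386, 233 and 588 CPM.

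In crypt cells the difference in Mt1 was smaller. TA-like cells had 448 CPM in cKO 1, 387 CPM in cKO 2 and 649 CPM in WT. The log2 ratios were -0.53 and -0.74, so Mt1 was past the fold in TA-like cells alone. ISC-like cells had 469, 461 and 544 CPM (log2 ratios -0.21 and -0.24). Taken as 1 set, ISC- and TA-like cells did not pass the fold for Mt1, because cKO 1 stood at -0.40 and cKO 2 at -0.54. The order of the classes by summed CPM therefore differed between libraries. In WT it ran from enterocyte-like through TA-like to ISC-like cells, with intervals that did not overlap, whereas in cKO 2 ISC-like cells were highest, and in cKO 1 the intervals of ISC- and TA-like cells overlapped at the top. Enterocyte-like cells came after both crypt classes in cKO 1 and between them in cKO 2. By the median cell the order was another. For Mt1 and Mt2 together, enterocyte-like cells had a lower median than either crypt class in every library, WT included. Their medians were 131, 119 and 442 CPM in cKO 1, cKO 2 and WT. TA-like cells had 408, 316 and 543 CPM, and ISC-like cells 423.5, 390 and 458.8 CPM.

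**Figure D1:**
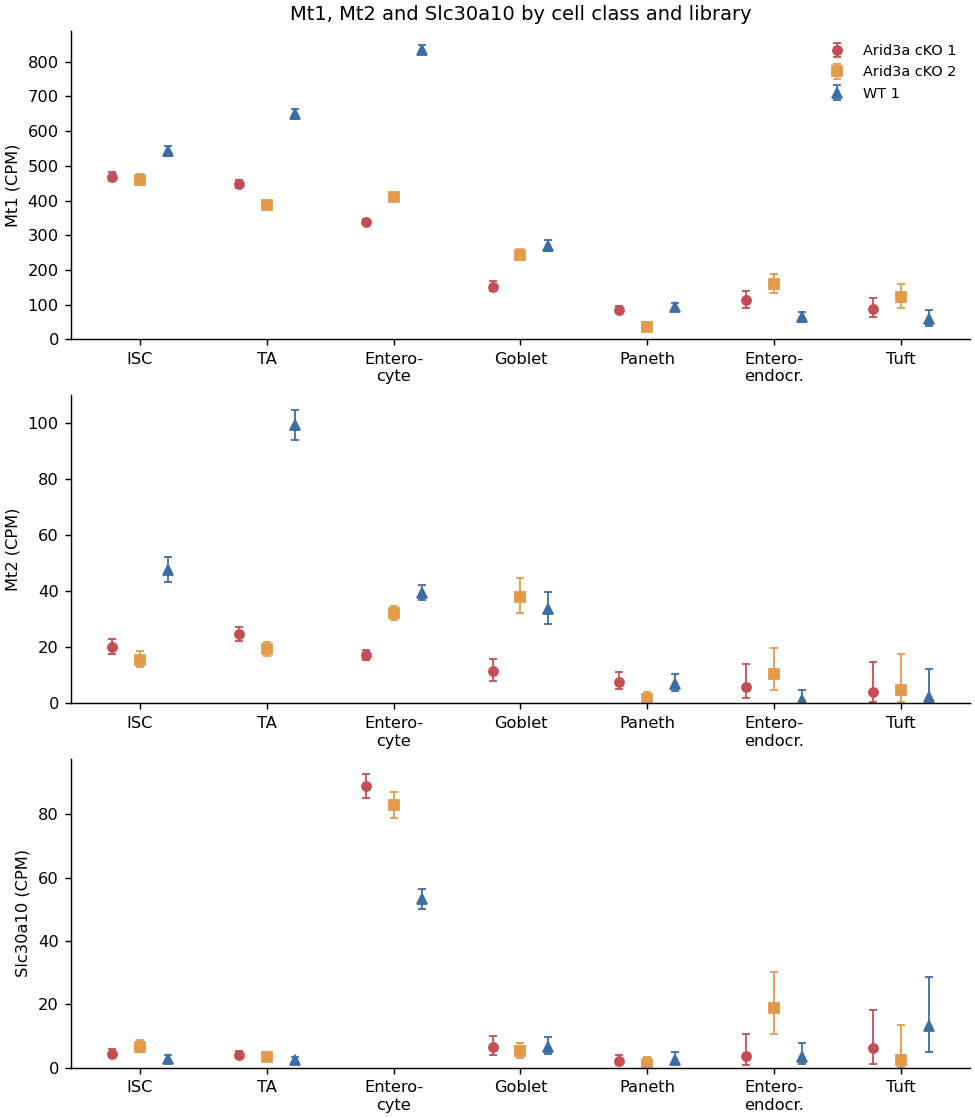
CPM of Mt1, Mt2 and Slc30a10 (linear axes from 0) in each cell class, as 1 point per library with its exact Poisson 95% interval for counting error. WT (triangles) was above both cKO libraries for Mt1 in ISC-, TA- and enterocyte-like cells and below them in enteroendocrine-like cells, whereas Slc30a10 in enterocyte-like cells was higher in both cKO libraries, at 88.9 and 82.8 CPM against 53.1 CPM.

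Goblet-like cells had 152 CPM of Mt1 in cKO 1, 244 CPM in cKO 2 and 270 CPM in WT, and the intervals of cKO 2 and WT overlapped. Paneth-like cells were low in CPM in every library, at 85.6, 34.6 and 94.7 CPM, where cKO 2 had only 17 such cells. Their median depth was 119501, 177412 and 127390 UMIs, and CPM is a share of that total rather than an amount per cell. Unthinned, 79.4%, 64.7% and 89.7% of them had a UMI of Mt1. Enteroendocrine-like cells went the other way, with 113 CPM (95 UMIs) in cKO 1, 160 CPM (137 UMIs) in cKO 2 and 63.6 CPM (94 UMIs) in WT. Their log2 ratios were 0.79 and 1.27, and neither cKO interval overlapped that of WT. In the same enteroendocrine-like cells, 8 of 10 ISC markers with at least 20 CPM were past the fold upward, and the ISC list summed to 509, 846 and 231 CPM, while 4 of 7 TA markers were higher too. After thinning to 10000 UMIs, a UMI of Mt1 was present in 25.7%, 16.7% and 27.4% of 35, 30 and 62 enteroendocrine-like cells. The share was thus not higher in cKO, while the mean per thinned cell was, at 0.886, 1.37 and 0.516 UMIs. These means rested on 9, 5 and 17 cells with a UMI, so no order is read from these cells. The part of these crypt markers in the Mt1 values was not tested. Tuft-like cells had 88.7, 122 and 59.0 CPM, from 43, 50 and 27 UMIs. The interval of cKO 1 (64.2 to 119.5) overlapped that of WT (38.9 to 85.8), and that of cKO 2 (90.5 to 160.8) lay above it.

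Goblet markers moved with Mt1 inside the enterocyte-like cells. All 5 goblet markers that averaged at least 20 CPM were lower past the fold, and the list of 12 summed to 268 CPM in cKO 1, 479 CPM in cKO 2 and 930 CPM in WT. WT goblet-like cells themselves had less Mt1 (270 CPM) than WT enterocyte-like cells (835 CPM). The Paneth list of 11 summed to 316, 259 and 382 CPM and the enteroendocrine list of 17 to 56.6, 41.8 and 98.1 CPM, while the 19 enterocyte markers summed to 101100, 109800 and 94600 CPM with 0 of 18 past the fold. Median depth was 32310, 36173 and 31063 UMIs per enterocyte-like cell, and the median mitochondrial share was 5.72%, 5.36% and 6.35%. Beyond these values, the part of other cell types in the result was not tested.

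Mt2 had a smaller level and among the named classes its largest difference was in TA-like cells. TA-like cells held 24.6 CPM (342 UMIs) in cKO 1, 19.2 CPM (241 UMIs) in cKO 2 and 99.0 CPM (1319 UMIs) in WT (log2 ratios -1.81 and -2.10). ISC-like cells held 20.3, 15.6 and 47.6 CPM (log2 ratios -1.06 and -1.36). WT stood apart from both cKO libraries in both classes. Over ISC- and TA-like cells together, where 5596 genes could be counted, 0.554% were lower and 0.357% higher past the fold, and Mt2 was the only 1 of 4 members counted there that was past it (22.7, 17.8 and 77.6 CPM). Slc30a10, Slc30a1 and Mtf1 averaged under 20 CPM in that set.

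In enterocyte-like cells Mt2 was at 17.2 CPM in cKO 1, 32.2 CPM in cKO 2 and 39.4 CPM in WT. Both lay below WT, but cKO 1 had a log2 ratio of -0.996 and cKO 2 one of -0.26, so the gene did not pass the fold in these cells. The clusters disagreed. In the Dnase1- and Cubn-led cluster Mt2 was at 9.004, 4.59 and 26.0 CPM, with WT highest, whereas in the Ms4a18- and Areg-led cluster WT (44.5 CPM) lay between cKO 1 (11.8 CPM) and cKO 2 (52.5 CPM). With Scrublet-marked cells left out, cKO 2 moved to -0.56 and Mt2 passed the fold in enterocyte-like cells. The Bmp3-led cluster had 11.5, 4.69 and 48.2 CPM. Goblet-like cells had 11.5 CPM in cKO 1, 38.0 CPM in cKO 2 and 33.7 CPM in WT, and here the cKO libraries stood on opposite sides of WT.

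Mt1 and Mt2 were also compared as parts of their sum, which needs no scaling between libraries. A 3′ tag counts a transcript once whatever its length. In TA-like cells Mt1 made up 94.8% (94.2 to 95.3) of the UMIs of both genes in cKO 1, 95.3% (94.6 to 95.8) in cKO 2 and 86.8% (86.1 to 87.4) in WT (exact binomial intervals). In ISC-like cells the share was 95.9%, 96.7% and 92.0%, again lowest in WT. Enterocyte-like cells differed from this, with 95.2%, 92.7% and 95.5%, and WT was the highest there. In the crypt the cKO libraries thus held proportionally less Mt2 than Mt1, while in enterocyte-like cells cKO 1 and WT had nearly the same proportion.

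Cell by cell, the lower metallothionein level in cKO enterocyte-like cells was spread over most of the distribution. The median cell had 131 CPM of Mt1 and Mt2 together in cKO 1, 119 CPM in cKO 2 and 442 CPM in WT. At the 10th percentile the values were 0, 0 and 51.0 CPM, and at the 90th they were 891, 909 and 2015 CPM. The highest 5% of cells held 37.1% of the UMIs in cKO 1, 51.5% in cKO 2 and 28.4% in WT. The medians of the cKO libraries thus lay closer together than their means, and the mean of cKO 2 rested more on few cells. In TA-like cells the medians were 408, 316 and 543 CPM, and the highest 5% of cells held 18.4%, 22.9% and 21.1%.

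**Figure D2:**
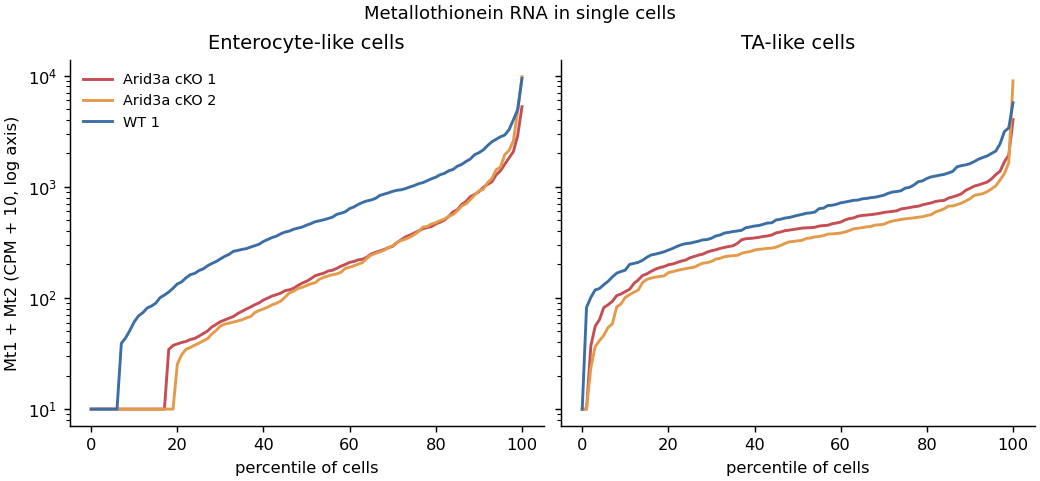
Mt1 and Mt2 together in single cells, as CPM + 10 on a log axis, against the percentile of cells, 1 line per library. In enterocyte-like cells both cKO lines run below the WT line apart from the lowest and highest percentiles, with medians of 131 and 119 CPM against 442 CPM, and in TA-like cells the lines lie closer together.

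The share of enterocyte-like cells with a UMI was also highest in WT for Mt1 and Mt2 after each cell was thinned to 10000 UMIs. A UMI of Mt1 was seen in 65.8% (62.3 to 69.1) of 768 enterocyte-like cells of cKO 1, 65.2% (61.1 to 69.1) of 566 of cKO 2 and 86.9% (84.1 to 89.4) of 658 of WT. Unthinned, the shares were 82.3%, 79.9% and 93.4%. In ISC-like cells a UMI of Mt1 was present in 95.3%, 95.4% and 95.6% of thinned cells, with overlapping intervals. Mt2 was seen in 8.85%, 6.89% and 15.8% of thinned enterocyte-like cells and in 11.6%, 15.1% and 23.7% of thinned ISC-like cells. In both classes the cKO libraries stood in the reverse of their order by CPM of Mt2. In goblet-like cells, thinned, Mt1 was seen in 40.5%, 49.5% and 53.0%. Paneth-like cells, which had the highest median depth, had a UMI of Mt1 in 46.7%, 14.3% and 50% of 30, 14 and 26 thinned cells.

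Slc30a10 was a gene of enterocyte-like cells and was higher there in both cKO libraries. It was at 88.9 CPM (85.3 to 92.7) in cKO 1, 82.8 CPM (78.9 to 86.9) in cKO 2 and 53.1 CPM (50.01 to 56.3) in WT (log2 ratios 0.69 and 0.60). The cKO libraries lay nearer to each other than to WT. In ISC-like cells it was at 4.35, 6.62 and 2.72 CPM and in TA-like cells at 4.10, 3.19 and 2.48 CPM, from 26 to 57 UMIs in each library. The Akp3- and S100g-led cluster had the most Slc30a10, at 205, 176 and 113 CPM. It held 158 of 783 enterocyte-like cells in cKO 1, 139 of 583 in cKO 2 and 110 of 678 in WT, and the part of this makeup in the class value was not tested. In the Dnase1- and Cubn-led cluster, the largest, the values were 57.6, 50.5 and 40.9 CPM (log2 ratios 0.45 and 0.27), in the Ms4a18- and Areg-led cluster 59.5, 63.0 and 41.1 CPM, and in the Bmp3-led cluster 20.04, 16.6 and 8.82 CPM. In each of these the cKO libraries were above WT with intervals apart, though only the first and the last of the 4 clusters reached a log2 ratio of 0.5 in both. The interferon-led cluster did not share this, with 77.6, 44.6 and 71.6 CPM from 43, 21 and 39 UMIs. When the enterocyte-like clusters were given equal weight, so that those few cells weighed as much as the large clusters, the ratios became 0.55 and 0.30 and Slc30a10 no longer passed the fold.

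Thinned to 10000 UMIs, 49.6% (46.0 to 53.2) of enterocyte-like cells of cKO 1, 49.3% (45.1 to 53.5) of cKO 2 and 37.8% (34.1 to 41.7) of WT had a UMI of Slc30a10. Unthinned, the shares were 79.6%, 79.9% and 66.2%, at median depths of 32310, 36173 and 31063 UMIs. For comparison, thinned goblet-like cells had a UMI of Slc30a10 in 4.76%, 3.88% and 8.70%, at median depths of 23645, 29929 and 26179 UMIs before thinning. The shares were 4.15%, 4.57% and 2.37% in thinned ISC-like cells and 3.44%, 3.18% and 1.92% in thinned TA-like cells. Whether these classes make the RNA themselves was not tested.

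Slc39a4 and Slc39a5, the importers, differed little between the groups. In enterocyte-like cells Slc39a4 was at 155 CPM in cKO 1, 149 CPM in cKO 2 and 144 CPM in WT (log2 ratios 0.10 and 0.04), and the cKO 2 and WT intervals overlapped. Slc39a5 was at 203, 200 and 208 CPM (log2 ratios -0.03 and -0.06). Both genes were highest in enterocyte-like cells in every library, with intervals clear of the next class. Slc39a5 showed a small difference in the crypt, where ISC- and TA-like cells together had 94.4, 93.5 and 77.4 CPM, cKO intervals lay above that of WT and the log2 ratios were 0.27 and 0.26, under the fold used. Slc39a4 stood at 39.2, 43.0 and 39.6 CPM in the same cells. Paneth-like cells had little Slc39a4, at 3.89, 2.75 and 10.7 CPM from 14, 7 and 35 UMIs, and tuft-like cells had 12.4, 36.6 and 2.19 CPM from 6, 15 and 1 UMIs.

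The zinc exporter Slc30a1 was at 34.2 CPM in cKO 1, 31.9 CPM in cKO 2 and 38.4 CPM in enterocyte-like cells of WT (log2 ratios -0.14 and -0.23). Mtf1 was at 26.5, 24.1 and 29.2 CPM (log2 ratios -0.12 and -0.23). WT was the highest of the 3 libraries for both genes, but its interval overlapped that of at least 1 cKO library, and neither passed the fold. In ISC- and TA-like cells Slc30a1 was at 8.06, 7.64 and 7.21 CPM, and Mtf1 at 17.0, 17.1 and 17.9 CPM. In goblet-like cells, where 4993 genes could be counted and 0.681% were higher and 0.781% lower past the fold, 0 of the 4 members that could be counted were past it.

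**Figure D3:**
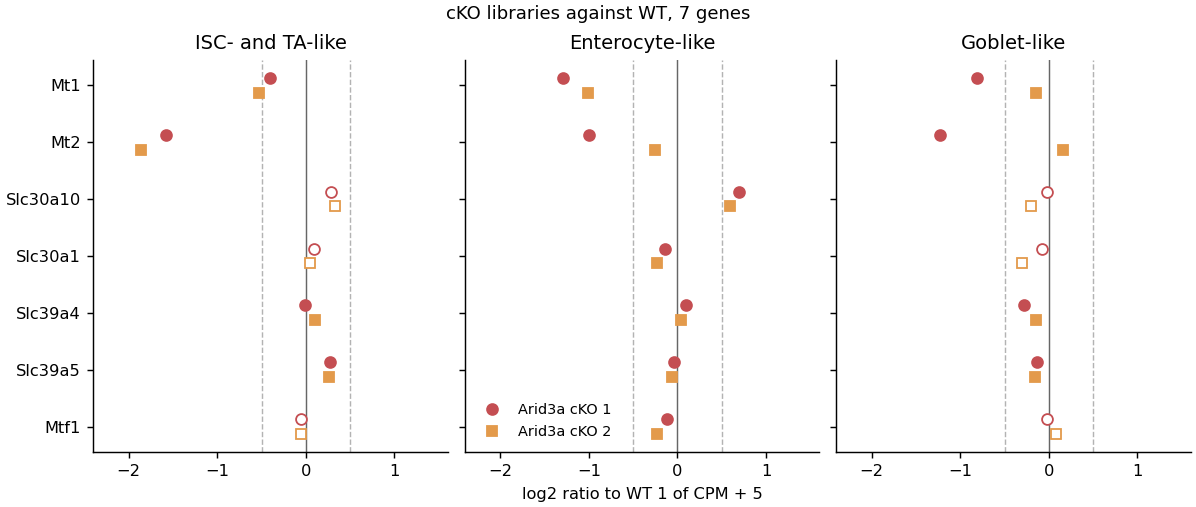
Log2 ratio of CPM + 5 of each cKO library to WT for the 7 genes in ISC- and TA-like, enterocyte-like and goblet-like cells. Open symbols are genes under a mean of 20 CPM and dashed lines mark 0.5 in either direction. Both symbols lie beyond a dashed line for Mt1 and Slc30a10 in enterocyte-like cells and for Mt2 in ISC- and TA-like cells.

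Along the path from stem cell to enterocyte, cells were put in order by diffusion pseudotime and divided into 5 bins of equal cell number. The first 2 bins held ISC- and TA-like cells alone, the third held 520 enterocyte-like cells beside 122 ISC- and 121 TA-like cells, and the last 2 held enterocyte-like cells alone. In WT, Mt1 climbed from 586 CPM in bin 1 over 627 and 781 to 1026 CPM in bin 4 and was back at 594 CPM in bin 5. cKO 1 had no such peak, with 489, 463, 322, 443 and 245 CPM, and neither had cKO 2, with 454, 384, 494, 451 and 255 CPM. The mean bin of Mt1, weighted by level, was 2.74 in cKO 1, 2.84 in cKO 2 and 3.12 in WT. Mt2 peaked early in WT, at 86.8 CPM in bin 2, and its mean bin was 2.77, 2.94 and 2.56.

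Slc30a10 came on with enterocytes in every library. In bins 1 and 2 it was at 1.67 to 5.01 CPM, and in bin 3 at 45.4, 44.1 and 27.9 CPM in cKO 1, cKO 2 and WT. It ended at 100.4, 92.8 and 59.9 CPM in bin 5. The mean bins were 4.15, 4.11 and 4.14, nearly alike in the 3 libraries. Bins 1 and 2 held no enterocyte-like cells and the order came from integrated libraries, so a shift in timing could be missed. Over ISC- and TA-like cells together it was higher in the cKO libraries, at 4.21 and 4.54 CPM against 2.58 CPM (104, 94 and 59 UMIs). The intervals lay apart from that of WT, at a mean level under 20 CPM. Goblet-like cells had 6.40, 5.07 and 6.58 CPM in cKO 1, cKO 2 and WT, above these crypt values. The part of RNA from other cells in the crypt values was not tested. Slc39a4 went from 37.9, 38.9 and 37.4 CPM in bin 1 to 174, 157 and 161 CPM in bin 5, with mean bins of 3.77, 3.695 and 3.74. Slc39a5 had its highest value in bin 4 in every library, at 217, 211 and 219 CPM. Slc30a1 went from 5.99 to 7.90 CPM in bins 1 and 2 to 34.1, 29.9 and 35.9 CPM in bin 3.

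**Figure D4:**
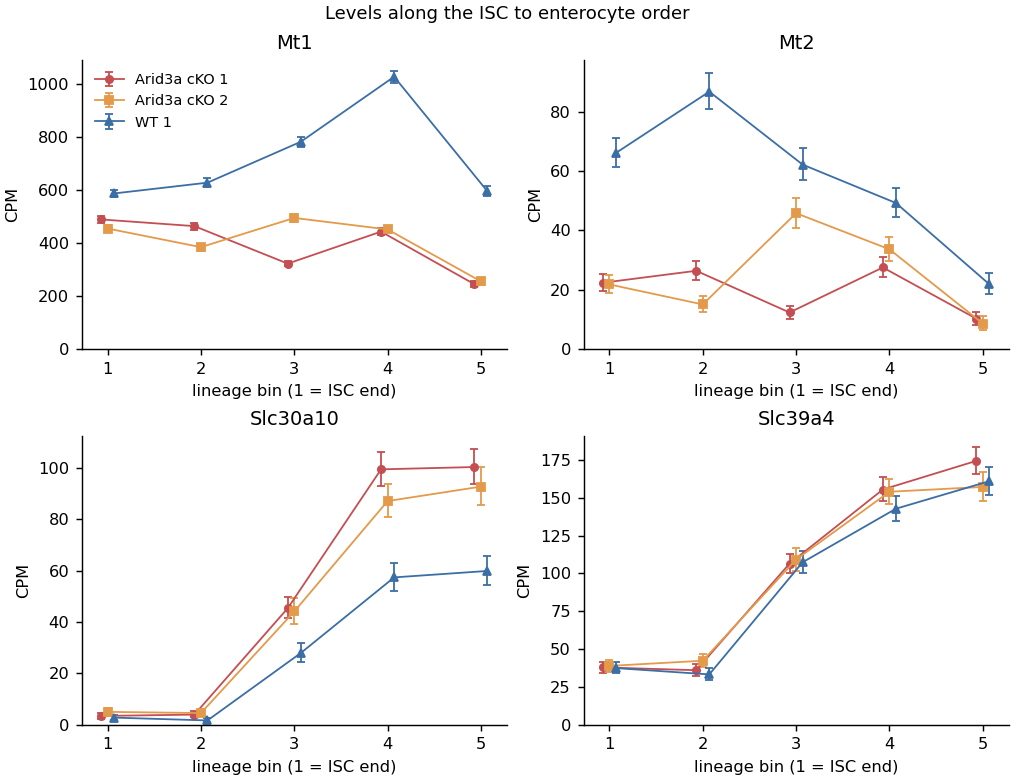
CPM of Mt1, Mt2, Slc30a10 and Slc39a4 in 5 bins of equal cell number along the order from ISC-like to enterocyte-like cells, 1 line per library, with exact Poisson 95% intervals. The WT line of Mt1 peaks at 1026 CPM in bin 4 while both cKO lines stay under 500 CPM, and the WT line of Slc30a10 is the lowest of the 3 in every bin, ending at 59.9 CPM against 100.4 and 92.8 CPM.

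Among other genes of zinc and metal handling, few averaged the 20 CPM needed to be counted. Of 8 further SLC30 exporters, 4 could be counted in enterocyte-like cells, 2 in ISC- and TA-like cells and 3 in goblet-like cells, and 0 of these were past the fold. Of 12 further SLC39 importers, 4, 3 and 5 could be counted in the same classes, and 0 of these were past it. The median log2 ratio of the exporters counted in enterocyte-like cells was -0.12. Those with the highest level were Slc30a5, which loads zinc into the secretory pathway (51.9, 50.6 and 60.9 CPM), Slc30a4 (37.6, 37.4 and 33.9 CPM) and Slc30a2 (27.4, 24.8 and 33.9 CPM). The importers counted there had a median of -0.18, and the highest were Slc39a14, a carrier of zinc, iron and manganese (78.7, 75.6 and 88.9 CPM), Slc39a9 (43.6, 46.9 and 53.8 CPM) and Slc39a1 (34.6, 39.04 and 31.4 CPM). The other metallothioneins were nearly absent. Mt4 had 0 or 1 UMIs in enterocyte-like cells, and Mt3, with 0 UMIs there, was found in goblet-like cells at 6.40, 7.86 and 8.53 CPM. Mt3 was also found in enteroendocrine-like cells, at 2.4, 5.83 and 8.11 CPM from 2, 5 and 12 UMIs. In Paneth-like cells it was at 2.78, 0.787 and 1.84 CPM.

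Lists of genes for other metals, stress, hormone response and intestinal region were counted in the same way. Of 9 copper handling genes, 7 could be counted in enterocyte-like cells, 6 in ISC- and TA-like cells and 6 in goblet-like cells. Of 4 zinc-binding LIM protein genes, 1, 2 and 3 could be counted in these classes, and of 7 oxidative stress (NRF2) targets and 4 HNF factor genes, 4 and 2 in each class. Among the genes of these 4 lists that could be counted, 0 were past the fold in any of the 3 classes. Of 9 glucocorticoid targets, 5 could be counted in each class. Errfi1, an inhibitor of EGF receptor signalling, was higher in enterocyte-like cells (88.2, 92.2 and 56.5 CPM), and the list's median log2 ratio was 0.17 there, 0.27 in ISC- and TA-like cells and 0.20 in goblet-like cells, beside medians over all counted genes of -0.016, 0.015 and 0.002. Of 16 immediate early and heat shock genes, 14, 16 and 15 could be counted. Hsph1, a large chaperone, was lower in enterocyte-like cells (9.34, 11.8 and 62.1 CPM), in ISC- and TA-like cells (49.8, 64.0 and 179 CPM) and in goblet-like cells (20.9, 19.0 and 77.1 CPM). Hspa1b was lower and Atf3 higher past the fold in goblet-like cells. Of 7 proximal small intestine genes, 6 could be counted in enterocyte-like cells and 0 were past the fold, and 0 of 3 distal genes could be counted. The part of stress or of intestinal region in the Mt1 and Mt2 values was not tested.

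The patterns of Mt1, Slc30a10, Slc39a4 and Slc39a5 were each compared with those of 5712 genes over 20 sums of a class and a library. The measure was Pearson r of log2(CPM + 5), a description over points that share libraries and cells. Closest to Mt1 were Tnfsf10 (0.92), Irf8 (0.92) and Adk (0.92). Among the members, Mt2 stood at 0.88 with Mt1, Slc39a5 at 0.86 and Slc39a4 at 0.69. Slc30a10 was closest to Bst1 (0.95), Slc5a11 (0.94) and Dnase1 (0.93), and its r with Mt1 was 0.30. Slc39a4 was closest to Slc3a2 (0.96), Ugt2b34 (0.95) and Abcg2 (0.94). Slc39a5 was closest to Ccl25, Plbd1 and Aadac (0.97 each) and stood at 0.84 with Slc39a4.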

How the data were processed

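Sorted intestinal epithelial cells were profiled with the 10x 3′ kit in 2 Arid3a cKO libraries and 1 WT library. The authors deposited raw UMI counts per gene and barcode, made with Cell Ranger (submitters' processing notes, which list GRCh38 and hg19, whereas the samples are mouse). The mouse build used for counting is not given in the sources used here. Gene positions came from GENCODE M21 (GRCm38), matched by gene ID, and promoter windows from RefSeq (GRCm38.p6).

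Cells with at least 1000 genes and at most 15% mitochondrial UMIs were kept (5594 of 25554 barcodes). Libraries were integrated in Seurat 5.3.0 (R 4.3.3) by CCA on 3000 features, with 30 components and a resolution of 0.3, and clusters were named from marker lists. Scrublet marked 110 cells (1.97%) as doublets, which were kept in the main values. UMIs were summed by class and library and expressed as CPM of that sum, with exact Poisson 95% intervals. Ratios were log2((CPM + 5 in cKO) / (CPM + 5 in WT)), computed over all genes of the table. Shares of cells used cells thinned to 10000 UMIs, with exact binomial intervals. No interval covers spread between mice, and those over UMIs do not cover spread between cells. Pseudotime was computed in scanpy 1.11.5 with 30 neighbours. The Bmp3-led cluster was kept in the graph to join crypt and enterocyte-like cells, and only ISC-, TA- and enterocyte-like cells were binned. Libraries were not from stated pairs, cells are not replicates, and with 1 WT library no p-value was computed. The fold rule alone was tested on simulated data, as Poisson counts for the enterocyte-like sums with known fold changes. That simulation held no spread between mice, and the other steps were not tested in this way.

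The members and lists were chosen with earlier results of these data known. Genes likest to a member were the 3 with the highest Pearson r for Mt1, Slc30a10, Slc39a4 and Slc39a5. In each further family the 3 genes with the highest mean CPM in enterocyte-like cells were named, and in other lists each gene past the fold.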

Additional observations from a re-analysis of the deposited data

Results flagged for a closer look

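The log2 ratio of Mt1 between cKO and WT had opposite signs in different cell classes, in both cKO libraries. The mean ratio in enteroendocrine-like cells exceeded that in TA-like cells by 1.66 and that in enterocyte-like cells by 2.18. In tuft-like cells it exceeded that in TA-like cells by 1.40 and that in enterocyte-like cells by 1.92. These differences between classes were not tested, and the tuft-like values rest on 27 to 50 UMIs per library, with the interval of cKO 1 overlapping that of WT. In enteroendocrine-like cells the thinned share of cells with a UMI of Mt1 (25.7%, 16.7% and 27.4%) was not higher in cKO. The mean thinned count was higher (0.886, 1.37 and 0.516 UMIs per cell), from few cells with a UMI. In addition, 8 of 10 ISC markers were higher there, so no order is read from these cells.

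Barcodes outside the limits on genes and mitochondrial UMIs (4711 and 5343 in cKO 1 and cKO 2, 9906 in WT) held Slc30a10 at 95.8 CPM in cKO 1 and 107 CPM in cKO 2, above the 49.2 CPM of WT. Slc39a4 was at 47.0 and 53.2 CPM there, above the 37.4 CPM of WT. With mitochondrial UMIs left out of the total, Slc30a10 was at 194, 213 and 111 CPM and Slc39a4 at 95.4, 106 and 84.3 CPM, in the same order of libraries. In the same barcodes Mt1 was at 69.4, 75.1 and 88.2 CPM. Its log2 ratios there, -0.33 and -0.22, are under the fold and smaller in size than in kept enterocyte-like cells. The ratios of Mt2 were -0.25 and -0.051. With mitochondrial UMIs left out of the total, the ratios were larger in size but still under the fold. They were -0.48 and -0.40 for Mt1 and -0.45 and -0.19 for Mt2. No group had the 4 libraries that a check for a library standing apart needs.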

How the results depend on the processing

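In enterocyte-like cells, Mt1 was past the fold in 12 of 12 alternatives that kept both cKO libraries, Slc30a10 in 11 and Mt2 in 3. Limits of 500 genes and 25% mitochondrial UMIs moved the mean log2 ratio of Mt1 to -0.90 and of Slc30a10 to 0.57, and clusters weighted equally moved Slc30a10 to 0.43. Mt2 passed the fold with Scrublet-marked cells left out, with clusters weighted equally and with the Bmp3-led cluster counted as enterocytes. Leaving out 1 cKO library gave -1.29 to -1.01 for Mt1, -0.996 to -0.26 for Mt2 and 0.60 to 0.69 for Slc30a10. Of all genes, 30 were higher and 47 lower past the fold, against 5 and 13 at a log2 ratio of 1, 44 higher and 74 lower without the minimum level, and 46 to 49 higher and 72 to 73 lower with 1 cKO library left out. Unthinned, the cKO minus WT difference in the percent of cells with a UMI was -12.3 for Mt1 (main value -21.5), -12.3 for Mt2 (-7.94) and 13.5 for Slc30a10 (11.6). With the Bmp3-led cluster in the bins, the mean bin of Mt2 was higher in cKO than in WT by 0.48 (main value 0.29). The causes of these shifts were not tested. Settings with the Bmp3-led cluster and without the interferon-led cluster were chosen after seeing the data. No paired analysis was possible because WT has just 1 library, whose number occurs in 1 cKO library. Without a second WT library, no alternative shows how far control mice differ.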
